A study of Mus musculus with 6 samples.

Results

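The genes described here encode the Id proteins Id1, Id2 and Id3 and the E proteins Tcf3, Tcf4 and Tcf12 of the mouse. The rule that chose them uses the gene symbol and no measured value, though it was written with earlier results of these data known. All 6 were found among the 19938 genes of the array table, each with 1 probe set that carries its symbol alone. The arrays measured naive CD4 T cells from the peripheral lymph nodes of mice aged 6 weeks. The strain, C57BL/6 Foxp3-GFP, marks cells that express Foxp3, which directs regulatory T cells, with a green fluorescent protein. One population lacked the surface protein Ly-6C and the other carried it. Both shared the rest of the gate (CD4+, TCRβ+, low in CD44, and negative for CD8, CD25 and Foxp3), and each was hybridised on 3 Affymetrix arrays. The labels call these arrays biological replicates and do not say which mice, or how many, gave each one, so p-values measure the spread between these arrays. The comparison asks which transcripts differ between Ly-6C-negative and Ly-6C-positive naive cells, and every difference is given on the log2 scale, positive where Ly-6C-negative cells were higher.

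E proteins are basic helix-loop-helix transcription factors that pair with each other and bind DNA at E-boxes, short sites of the form CANNTG. Id proteins have the helix-loop-helix that makes pairs but lack the basic region that touches DNA, so an Id protein paired with an E protein keeps it from binding. In T cells the balance of the families is known from thymocyte development, where E proteins drive receptor gene rearrangement and signals through the T cell receptor raise Id3, and from mature cells, where Id2 and Id3 take part in effector, memory, follicular helper and regulatory fates. Tcf3 encodes E2A, Tcf4 encodes E2-2 and Tcf12 encodes HEB. They are not the HMG-box factors Tcf7l1 and Tcf7l2, for which the names Tcf3 and Tcf4 have also been used. The annotated gene identifiers of the probe sets, 21423 for Tcf3 and 21413 for Tcf4, are those of the E protein genes.

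The sequences just upstream of Id2 and Id3 are shown because these were the 2 genes whose groups did not overlap, and that of Dntt because it was the one gene passing the test on a list of genes linked to E proteins. Each run is the 250 bases before the annotated start on the gene's own strand, from RefSeq on GRCm38.p6, and capitals mark every E-box of the form CANNTG. They lie at chr12:25096093-25096342 on the minus strand for Id2, at chr4:136143572-136143821 on the plus strand for Id3 and at chr19:41029025-41029274 on the plus strand for Dntt.
Id2: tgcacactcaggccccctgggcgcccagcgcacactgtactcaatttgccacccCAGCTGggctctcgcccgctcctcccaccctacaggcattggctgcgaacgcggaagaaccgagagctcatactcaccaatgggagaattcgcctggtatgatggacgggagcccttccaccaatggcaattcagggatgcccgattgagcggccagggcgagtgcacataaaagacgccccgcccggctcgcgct
Id3: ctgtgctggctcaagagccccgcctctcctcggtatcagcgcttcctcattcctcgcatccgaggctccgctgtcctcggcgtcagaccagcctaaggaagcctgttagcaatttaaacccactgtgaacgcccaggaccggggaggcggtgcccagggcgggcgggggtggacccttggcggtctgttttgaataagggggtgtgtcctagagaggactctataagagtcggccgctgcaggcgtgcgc
Dntt: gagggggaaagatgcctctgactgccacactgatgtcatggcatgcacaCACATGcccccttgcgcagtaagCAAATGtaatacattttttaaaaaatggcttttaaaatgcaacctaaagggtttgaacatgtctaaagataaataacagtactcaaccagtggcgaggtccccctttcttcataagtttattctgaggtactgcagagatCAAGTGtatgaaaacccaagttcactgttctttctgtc
The Id2 window held 1 E-box, CAGCTG, beginning 196 bases before the start. The Id3 window held none, and the Dntt window held 3 of other forms. Of all 32851 upstream windows in the table, 66.2% held at least 1 CANNTG and 13.0% held CAGCTG, both of which read the same on either strand and overlap by construction. The Id2 window also held 1 GGCGCC, a sequence known from BMP-responsive SMAD binding, which 9.59% of all windows held. Neither the Id2 nor the Id3 window held GCGGGGGCG or GCGTGGGCG, the forms of the EGR site searched on both strands, which 2.57% and 0.536% of windows held. A match is only a stretch of letters, and nothing about binding was measured.

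Among the Id genes, Id2 showed the largest difference of the 6 genes, and every Ly-6C-negative array was above every Ly-6C-positive one. Id2 (probe set 10399691), the inhibitor most associated with effector and innate lymphoid cells, measured 9.26, 9.53 and 9.16 in Ly-6C-negative cells, against 8.78, 8.86 and 8.57 in Ly-6C-positive cells. The groups did not overlap, and the lowest Ly-6C-negative array lay 0.30 above the highest Ly-6C-positive one. The means were 9.32 ± 0.19 in Ly-6C-negative cells and 8.73 ± 0.15 in Ly-6C-positive cells (SD, n = 3 each), a difference of 0.58 with a standard error of 0.11, or 1.50-fold. This did not pass the threshold of adjusted p 0.05 over all genes (limma adjusted p = 0.144, 95% interval of the difference 0.34 to 0.83).

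The replicate number changed this call. The labels state no pairing. Same-numbered arrays of the 2 populations deviated together only weakly from their group means, at r = 0.129, 0.128 and 0.107 over the genes. These lay above the bound of 0.1 set for reading arrays as pairs. Over every probe set the r of replicate 3 was 0.0856, below that bound. With the number as a block Id2 was higher past the threshold (limma adjusted p = 0.0158, standard error 0.075, 95% interval 0.41 to 0.75). Within the numbers the differences were 0.48, 0.67 and 0.59 for replicates 1, 2 and 3. The blocked call held without the pair of replicate 2 (limma adjusted p = 0.0385) or replicate 3 (limma adjusted p = 0.0242), and was lost without the pair of replicate 1 (limma adjusted p = 0.237, with the difference at 0.63). Id2 was the one member called with the block, among 6, where the block called 0.206% of all genes. Without it none of the 6 was called, where 0.145% of all genes were, by limma at adjusted p under 0.05. At an unadjusted limma p under 0.05 there were 2 of the 6, Id2 and Id3, against 6.71% of all genes.

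Id3 differed in the same direction as Id2, but 1 array carried most of the difference. Id3 (probe set 10509163), the Id gene that receptor signals raise in thymocytes, measured 7.39, 8.09 and 7.34 in Ly-6C-negative cells, against 7.14, 7.24 and 7.27 in Ly-6C-positive cells. The groups did not overlap, by a gap of 0.076, and Ly-6C-negative replicate 2 stood 0.73 above the mean of the other arrays of its group. The means were 7.61 ± 0.42 in Ly-6C-negative cells and 7.21 ± 0.069 in Ly-6C-positive cells (SD, n = 3 each), a difference of 0.39 with a standard error of 0.17, or 1.31-fold. It did not pass without the block (limma adjusted p = 0.736) or with it (limma adjusted p = 0.522). Without Ly-6C-negative replicate 2 the Id3 difference was 0.15 (limma adjusted p = 0.554), while that of Id2 was 0.48 (limma adjusted p = 0.131). That array also stood apart over all genes, with a score of 19.9 on the first principal component, where the others lay between -10.0 and -0.26.

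Whether Id2 and Id3 changed unequally was tested on their log2 ratio within each array. The ratio of Id2 to Id3 signal was 1.88, 1.44 and 1.82 in Ly-6C-negative cells, against 1.64, 1.62 and 1.30 in Ly-6C-positive cells, with overlapping groups. The mean ratios differed by 0.19 (exact 2-sided permutation test over arrays, p = 0.4, where 3 against 3 arrays allow no p below 0.1). That difference was 0.078 without Ly-6C-positive replicate 3 and 0.32 without Ly-6C-negative replicate 2. Since the ratio comes from different probe sets, its level has no meaning of its own.

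Id1, the third inhibitor and a classic target of BMP signals, did not separate the populations. Its probe set, 10477169, was dimmer than the median gene of the table, at 6.23, 6.14 and 6.11 in Ly-6C-negative cells, against 6.08, 5.86 and 6.25 in Ly-6C-positive cells. The highest array was Ly-6C-positive replicate 3, and the difference was 0.097 (SE 0.097, limma adjusted p = 0.914). The 95% interval ran from -0.12 to 0.31, so a difference as large as that of Id2 lies outside it. Of the 6 genes, 2 had groups that did not overlap, Id2 and Id3, where this held for 12.6% of all genes and, higher in Ly-6C-negative cells, for 6.12%.

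**Figure D1:**
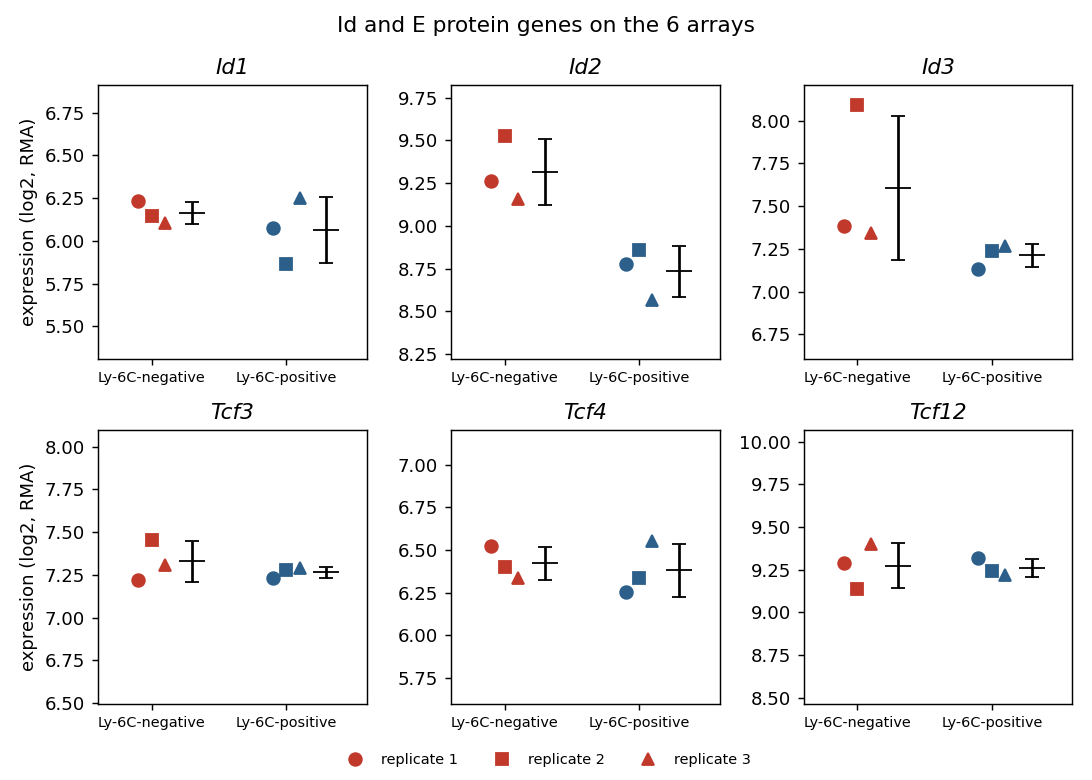
Expression (log2, RMA) of each Id and E protein gene on the 3 Ly-6C-negative arrays (red) and the 3 Ly-6C-positive arrays (blue), with a marker shape for each replicate number and the group mean ± SD in black; every panel spans the same number of log2 units. The groups separate for Id2 and, narrowly, for Id3, whose Ly-6C-negative replicate 2 stands at 8.09, and they overlap for the other 4 genes.

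None of the E protein genes separated the populations, and their differences were smaller than those of Id2 and Id3. Tcf12 (probe set 10594879), whose product HEB pairs with E2A in thymocytes, measured 9.29, 9.13 and 9.40 in Ly-6C-negative cells, against 9.32, 9.24 and 9.22 in Ly-6C-positive cells. Its difference was 0.014 (SE 0.080, limma adjusted p = 0.992). The Ly-6C-negative arrays included both the lowest and the highest value, and the 95% interval ran from -0.17 to 0.19.

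Tcf3 (probe set 10370837), the E2A gene, measured 7.22, 7.45 and 7.31 in Ly-6C-negative cells, against 7.23, 7.28 and 7.29 in Ly-6C-positive cells. The array above the rest was again Ly-6C-negative replicate 2, which lay 0.19 above the mean of the other arrays of its group, while for Tcf12 it lay 0.21 below. The Tcf3 difference was 0.063 (SE 0.075, limma adjusted p = 0.931, 95% interval -0.11 to 0.23), and without that array it was 0.00015 and did not pass.

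Tcf4 (probe set 10456522), the E2-2 gene, best known from plasmacytoid dendritic cells and B cells, stood close to the median gene of the table. It measured 6.53, 6.40 and 6.34 in Ly-6C-negative cells, against 6.25, 6.34 and 6.55 in Ly-6C-positive cells. The Ly-6C-negative values all lay within the range of the Ly-6C-positive ones, and the difference was 0.041 (SE 0.091, limma adjusted p = 0.967, 95% interval -0.16 to 0.25). The intervals of the 3 E protein genes together span -0.17 to 0.25 and do not show that the levels are equal. In RNA of sorted populations, fewer cells expressing a gene and less RNA per cell cannot be told apart.

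**Figure D2:**
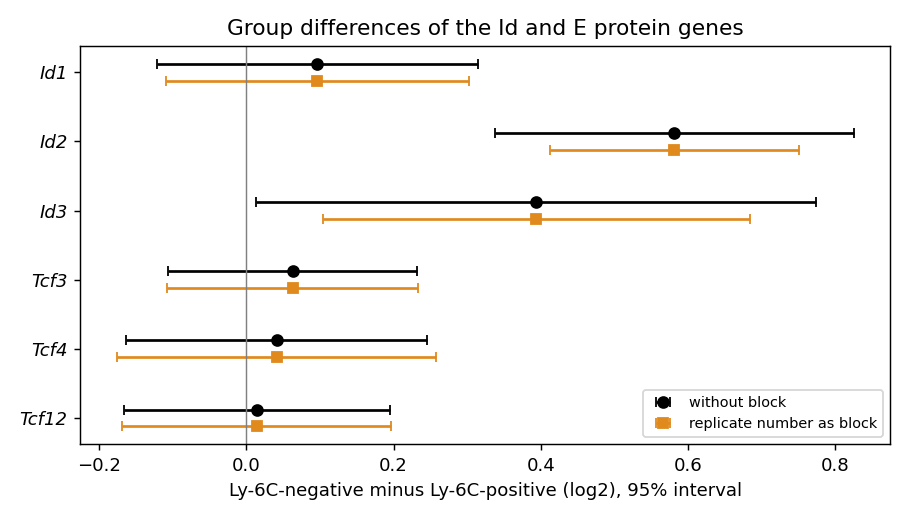
Difference between Ly-6C-negative and Ly-6C-positive cells (log2) for each gene, with its 95% interval from limma without a block (black circles) and with the replicate number as a block (orange squares), 3 arrays a group. The interval of Id2 runs from 0.34 to 0.83 without the block and from 0.41 to 0.75 with it, and those of Id1, Tcf3, Tcf4 and Tcf12 include 0.

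**Figure D3:**
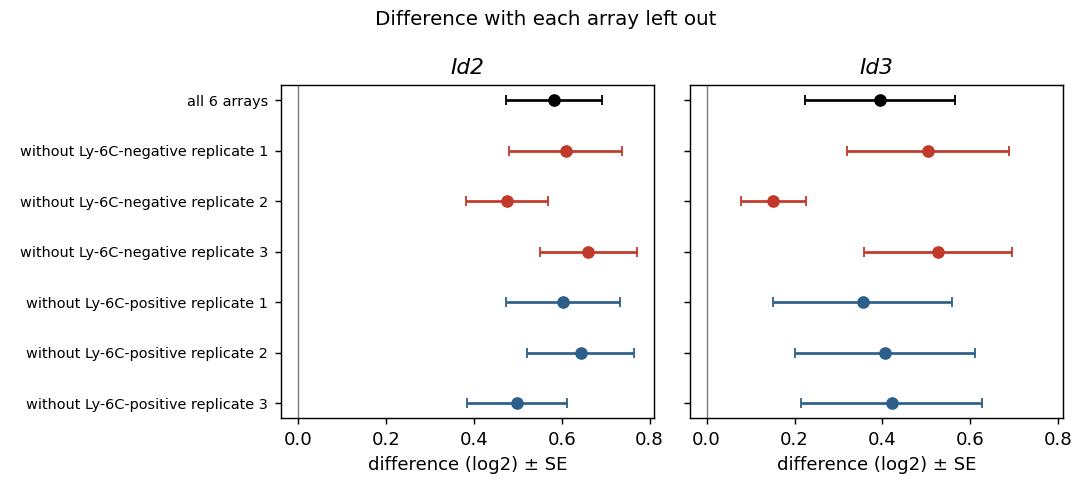
Difference (log2) ± SE of Id2 and Id3 with all 6 arrays (black) and with 1 Ly-6C-negative (red) or Ly-6C-positive (blue) array left out. Id2 stays between 0.48 and 0.66, while Id3 runs from 0.15, without Ly-6C-negative replicate 2, to 0.53.

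Other genes of the pathway were read from lists chosen by known role. Over all genes 0.145% were called, 0.1% as higher in Ly-6C-negative cells, 47.8% lay above 0 and 12.6% had groups that did not overlap, and each list's counts are to be read against these shares. The partners and cofactors of E proteins showed no called gene: of 21 measured members 0 passed without or with the block, and 12 lay above 0, with a median difference of 0.021 against -0.0048 over all genes. Id4, the remaining Id gene, differed by 0.033 and was dimmer than the median gene. Msc, a helix-loop-helix repressor, differed by 0.22 (limma adjusted p = 0.546), and Tal2, a partner of E proteins known from human leukaemic T cells, by -0.17 (limma adjusted p = 0.741), each with groups that did not overlap. Lyl1 and Runx1t1, a partner and a corepressor, differed by -0.11 each (limma adjusted p of 0.851 and 0.875). Of the HMG-box genes, 3 of 4 were measured and 0 passed, with differences of 0.061 for Tcf7l2, 0.042 for Lef1 and -0.00062 for Tcf7l1.

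Among genes linked to E proteins in thymocytes and T cells, Dntt fell in Ly-6C-negative cells and no other measured member passed. Dntt, the gene of the polymerase that adds nucleotides to receptor gene joints, differed by -1.37 (SE 0.14, limma adjusted p = 0.00768). Its call was lost when Ly-6C-negative replicate 1, Ly-6C-positive replicate 2 or Ly-6C-positive replicate 3 was left out, with limma adjusted p of 0.079, 0.079 and 0.0915. Of 14 measured members 1 was lower and 0 higher, 6 lay above 0, and the median was -0.012. Notch1, a receptor gene of T lineage commitment, and Cxcr5, the follicular homing receptor gene, differed by 0.21 and 0.22 with groups that did not overlap (limma adjusted p of 0.577 and 0.668). Rag1, a recombinase gene of developing lymphocytes, differed by 0.066 and Cd4 by -0.089 (limma adjusted p of 0.919 and 0.922).

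Genes of signals that act on Id genes, such as receptor, TGF-beta, BMP and cytokine signals, held no called member. Of 21 measured, 0 passed in either fit and 16 lay above 0, with a median of 0.062. Bmpr1a, a BMP receptor gene, was the one that lay apart below 0, at -0.35 (SE 0.084, limma adjusted p = 0.357, with the block 0.174). It was dimmer than the median gene, with means of 4.41 in Ly-6C-negative and 4.76 in Ly-6C-positive cells. Stat5b and Stat5a, which carry signals of IL-2 and related cytokines, differed by 0.21 and 0.16, and Egr1, an early gene of receptor signals, by 0.11. The groups of these 3 did not overlap, and none passed (limma adjusted p of 0.577, 0.805 and 0.826). In the whole list 4 members were higher and 1, Bmpr1a, was lower without overlap, where 12.6% of all genes had groups that did not overlap.

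Effector genes that go with Id2 in other T cells moved both ways. Of 13 measured, Il2rb, a receptor chain for IL-2 and IL-15, was higher by 1.12 (limma adjusted p = 0.000860), and Gzma, a granzyme gene, was lower, at -0.69 (limma adjusted p = 0.0392). The call of Gzma was lost without any single array except Ly-6C-negative replicate 2 (limma adjusted p between 0.0657 and 0.290 in the 5 fits), and with every probe set as its own feature (limma adjusted p = 0.056). With the block Prf1, the perforin gene, was also lower, at -0.70 (limma adjusted p = 0.00848; without it 0.145), which made 1 higher and 2 lower. The other members named by rule were S1pr5 at -0.20, Prdm1 at -0.13, Gzmb at 0.11 and Il2ra at 0.12, with limma adjusted p between 0.615 and 0.916. The median of the list was -0.0013, with 6 members above 0 and 10 dimmer than the median gene. Without overlap, 1 member was higher and 4 were lower, S1pr5 and Prdm1 among them, where 12.6% of all genes had groups that did not overlap.

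Genes of memory and follicular T cells that go with Id3 had no called member among the 9 measured. Bcl6, the repressor that directs follicular helper cells, differed by 0.30 (SE 0.071, limma adjusted p = 0.336). Eomes, a T-box factor gene, differed by 0.27 and Bach2, a repressor of effector genes, by 0.16 (limma adjusted p of 0.473 and 0.724). With Cxcr5 these made 4 of 9 members whose groups did not overlap, all higher in Ly-6C-negative cells, where 6.12% of all genes were so. Cxcr5 was dimmer than the median gene, and its groups were apart by only 0.022. The list had a median of 0.042 with 6 members above 0.

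**Figure D4:**
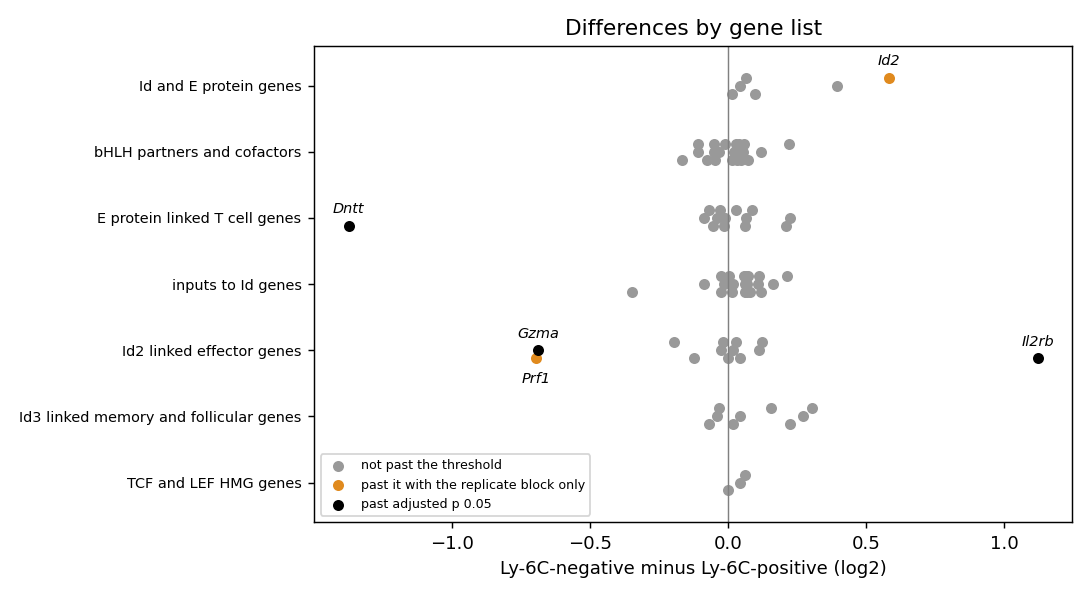
Difference between Ly-6C-negative and Ly-6C-positive cells (log2) for each measured gene (points) of the Id and E protein genes and of each list (rows, with points spread vertically for visibility). Genes past limma adjusted p 0.05 are black (Dntt, Il2rb and Gzma), those past it with the replicate block only are orange (Id2 and Prf1), and all others grey.

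Over the 6 arrays, the genes most like each member were found by Pearson's r among 9395 genes at least as bright as the median gene, with predicted or unnamed models, small RNAs and antigen receptor segments left out. They are a description, since all points share the same arrays and the group difference enters r. For Id2 they were Tmem248, Hacl1 and Smc2, a condensin subunit gene, with r of 0.996, 0.995 and 0.991. Smc2 differed by 0.35 and Hacl1 by 0.036, so a like profile did not mean a like size of difference, and none of the 3 passed (limma adjusted p between 0.217 and 0.953). For Id3 they were Pkm, a glycolytic enzyme gene, Tprn and Keap1, with r of 0.998, 0.993 and 0.989. A single array far from the rest, as Ly-6C-negative replicate 2 was for Id3, also weighs on r. Candidates with r above 0.95 numbered 84 for Id3, 77 for Tcf12, 31 each for Id2 and Tcf3, 8 for Tcf4 and 7 for Id1. The leading gene was Anks3 for Id1, Praf2 for Tcf3, Sod1 for Tcf4 and Tent4a for Tcf12, with r of 0.988, 0.991, 0.981 and 0.993.

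Markers of other cells were read beside Id2, which several cell types express. T cell genes were bright, with 9 measured and 0 called, and Cd3e stood at 11.76 in Ly-6C-negative and 11.78 in Ly-6C-positive cells. Of 15 regulatory T cell markers 6 passed, all higher in Ly-6C-negative cells (0.1% of all genes were), among them Il2rb, Ctla4, a receptor gene that restrains T cells, and Ikzf2, the Helios gene. The other 9 did not pass. Foxp3 at 0.013, Tnfrsf18 at -0.012 and Itgae at -0.088 were the lowest of the list. Tnfrsf4 at 0.39 (limma adjusted p = 0.139) was the highest of those 9. Of all 15 markers, 13 lay above 0, with a median of 0.34. Without overlap, 9 were higher (6.12% of all genes were) and 1 was lower. The summed linear signal of all 15, the called genes included, ranged from 3297 to 3634 in Ly-6C-negative cells and from 2218 to 2341 in Ly-6C-positive cells. The count of 6 called markers fell to 2 without Ly-6C-negative replicate 1, Ly-6C-positive replicate 2 or Ly-6C-positive replicate 3, and to 3 without Ly-6C-positive replicate 1. The part of these markers in the Id2 difference was not tested.

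Of 15 markers of NK and innate lymphoid cells, which are rich in Id2, 0 were called higher and 2 lower (0.145% of all genes were called), Klrd1 at -1.50 and Gzma, with Prf1 added by the block. The list's median was -0.0077 with 7 members above 0, and Eomes at 0.27 and Xcl1 at 0.17 were higher without overlap but did not pass. These calls were lost in all fits without 1 array except that without Ly-6C-negative replicate 2. With Klrd1, Gzma and Prf1 included, the list summed to 1313 to 1358 in Ly-6C-negative and 1588 to 1703 in Ly-6C-positive cells. Of the 15, 9 were dimmer than the median gene, among them Ncr1 and Klrb1c, at 4.35 and 3.84 in Ly-6C-negative cells. In Ly-6C-positive cells these stood at 4.40 and 3.835. Gata3, Klrd1 and Prf1 were brighter, at 8.74, 7.03 and 7.52 in Ly-6C-negative and 8.69, 8.53 and 8.21 in Ly-6C-positive cells. Activated and memory CD4 markers had 1 of 17 lower, Il18r1, and with the block 1 higher as well, Icos. Without overlap, 5 of these were higher, Ahnak at 0.50 among them, and 3 were lower, Cd44 at -0.25 among them. Over all genes 12.6% had groups that did not overlap. The sums were 6366 to 6960 in Ly-6C-negative and 6625 to 7156 in Ly-6C-positive cells. Of CD8 markers 1 of 8 was lower, Klrd1 again, with sums of 966 to 1291 in Ly-6C-negative and 1207 to 1325 in Ly-6C-positive cells. B cell markers had 0 of 11 called, all dimmer than the median gene, with sums of 469.3 to 489.7 in Ly-6C-negative and 469.3 to 487.2 in Ly-6C-positive cells. Plasmacytoid dendritic cell markers had 0 of 8 called and summed to 1182 to 1374 in Ly-6C-negative and 1199 to 1247 in Ly-6C-positive cells, and myeloid markers had 0 of 12, with sums of 1170 to 1342 in Ly-6C-negative and 1256 to 1370 in Ly-6C-positive cells. Bright genes weigh most in such linear sums, which include the called genes of each list. Of the 12 myeloid markers 9 were dimmer than the median gene, while Cst3 stood at 9.39 in Ly-6C-negative cells.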

How the data were processed

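The deposited values are log2 expression of 28853 probe sets on 6 arrays. Per the submitters' processing notes the authors used RMA and Partek, with neither version nor role stated. RMA makes the arrays' distributions alike, which hides any change common to the whole transcriptome and shrinks differences of dim genes. The log2 values ran from 2.47 to 13.6 and array medians from 6.25 to 6.29, and they were used as deposited. The number of arrays limits the precision.

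Gene names came from the platform annotation, which gave 1 symbol for 21789 probe sets, several for 1621 and no entry for 5443. The brightest probe set over the 6 arrays stood for each gene, which left 19938 genes. No sequence or build of the probes was used, and upstream sequences come from RefSeq.

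The test was limma (version 3.58.1, R 4.3.3), 2-sided and with no covariate, through lmFit and eBayes, with Benjamini-Hochberg adjustment over all 19938 genes. The unblocked fit was also run on simulated data with independent arrays, and the block fit was not. The criterion for recovery there left out the smallest planted difference. Members and lists were chosen with earlier results of these data known. Named genes are the 6 members, from each pathway list those past the threshold and up to 4 more with the smallest p, and for each member the 3 genes with the highest r. Of the marker lists, only some of the genes named by the rule are given. Some genes of the lists are not reported here.

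Replicate numbers are shared by both groups. After subtracting group means, arrays of the same number correlated over the genes at r = 0.129, 0.128 and 0.107, all above the bound of 0.1 set for reading them as pairs. Over every probe set the third was 0.0856, below it. The labels do not state a pairing, so the unblocked fit is the main one. Alternatives were the block, 2 other scalings, a filter on dim genes, other probe set rules, other limma settings and weights, a threshold of 0.1, and leaving out arrays singly. The plots used Python 3.11.15 with matplotlib 3.10.9.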

Additional observations from a re-analysis of the deposited data

How the results depend on the processing

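Of 6 members, Id2 was the one whose call changed when the processing was varied: with the replicate number as a block its difference was 0.582 and it passed (limma adjusted p = 0.0158, range over 15 settings 0.0158 to 0.590). Leaving out each pair in the block fit, an alternative chosen after seeing the data, Id2 also passed without replicate 2, at 0.538, and without replicate 3, at 0.577, and not without replicate 1, at 0.630. With 1 array left out and no block Id2 ranged from 0.476 to 0.661, Id3 from 0.152 to 0.526, Id1 from -0.00347 to 0.190, Tcf3 from 0.000152 to 0.116, Tcf4 from -0.0238 to 0.127 and Tcf12 from -0.0481 to 0.0835, and none passed. Signs changed for differences near 0. Id1 was -0.00347 without Ly-6C-positive replicate 2. Tcf4 was -0.0112 without Ly-6C-negative replicate 1 and -0.0238 without Ly-6C-positive replicate 1. Tcf12 was -0.00413 after a second quantile normalization, -0.0481 without Ly-6C-negative replicate 3 and -0.00757 without Ly-6C-positive replicate 3. Among list genes, Cd4 ranged from -0.201 to 0.00792, Lef1 from -0.0564 to 0.189 and Tcf7l1 from -0.0715 to 0.0565 with 1 array left out. Cd4 was 0.00792 without Ly-6C-negative replicate 2, and Lef1 was -0.00703 and -0.0564 without Ly-6C-negative replicates 1 and 3. Tcf7l1 was 0.0198 after a second quantile normalization, 0.0208 with array medians subtracted, 0.0244 with array weights, and 0.0319, 0.0132 and 0.0565 without Ly-6C-negative replicate 2 and Ly-6C-positive replicates 2 and 3. The cause was not tested.

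Over all genes 29 were called, 41 with the replicate block, 54 with array weights, and between 5, without Ly-6C-negative replicate 1, and 47, without Ly-6C-negative replicate 2. The group difference of the Id2 to Id3 ratio ranged from 0.0777 to 0.324 with 1 array left out. Its exact permutation test can pass the threshold in no setting, the replicate block (p = 0.5) included, and says nothing about stability. The filter on genes dimmer than the median gene left every such gene untested, among them Id1, Dntt and Gzma.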
